A study of Mus musculus with 10 samples.

Results

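Granulocyte-macrophage progenitors (GMP), the bone marrow cells that give rise to neutrophils and monocytes, were compared between mice with deleted and mice with wild-type Runx1. The samples were 4 of the 10 RNA-seq libraries of the study: 2 from Runx1-deleted GMP (Runx1Δ/Δ, from Runx1fl/fl-Tg(vav-Cre) mice) and 2 from wild-type GMP (Runx1wt/wt, from Runx1+/+-Tg(vav-Cre) mice). Both groups therefore carried the vav-Cre transgene, whose promoter is active across blood cells, so the deletion was not limited to GMP. Cells were sorted from bone marrow as Kit+ and CD16/32+ and as negative for lineage markers, Sca, CD41, CD105 and CD150. The members were the 2 RPKM columns of each of these groups, and the other 6 libraries held Runx1-deleted and wild-type megakaryocyte-erythroid progenitors (MEP) and a Runx1-deleted population named XMP. Ages are not in the labels, nor is it said whether the replicates of a group were separate animals, so p-values here cover only the spread between libraries, which may be technical.

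RUNX1 is a DNA-binding protein that works with its partner CBFB and activates or represses genes through the core motif TGTGGT. It is needed for the first blood stem cells of the embryo, for platelet production by megakaryocytes and for basophil development, and it is mutated in human leukaemias. GMP are known for high levels of the azurophil granule proteins that neutrophils later store, and the GMP gate also takes in precursors of basophils, mast cells, eosinophils and dendritic cells. In RNA from a sorted population, fewer cells of a type and less RNA per cell cannot be told apart, which holds for every gene group described here.

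RPKM, reads per kilobase of gene and M reads of the library, put genes on a scale per length. Of the 23240 genes in the table, 10364 had at least 1 RPKM in at least 2 of the 4 GMP libraries and were tested on log2(RPKM + 1) with limma, with the 10 libraries sharing an estimate of the spread. A gene was called when its Benjamini-Hochberg adjusted p was under 0.05, and every fold change below is Runx1-deleted minus wild type on that log2 scale, which understates the change of low genes. The totals worked back from the values were 54.9 and 46.1 M reads in Runx1-deleted GMP and 39.9 and 20.8 M reads in wild-type GMP. Reads per gene and gene lengths given below were estimated from the values as well. Lane went with genotype: both Runx1-deleted GMP libraries were run on lane 5, and the wild-type ones on lanes 3 and 2, so lane and genotype cannot be told apart here.

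Between the groups 584 genes were called, 5.63% of those tested, of which 349 (3.37%) were higher and 235 (2.27%) were lower in Runx1-deleted GMP. Among these, 32 rose and 24 fell by at least 2 on the log2(RPKM + 1) scale. The median over all genes tested was 0.04. The count was 250 without wild-type GMP 2, 256 without Runx1-deleted GMP 1 and 280 without Runx1-deleted GMP 2, and 206 genes (117 higher, 1.13%, and 89 lower, 0.859%) stayed called whichever GMP library was left out. It was 1798 without wild-type MEP 1 and 1808 without wild-type MEP 2. Genes described in full below kept their call in each of the 4 fits without 1 GMP library unless another value is given. Genes were named by a fixed rule of size and p, and Clec1b, Lat, P2rx1, Ptgs1, Socs3, Sox6, Tjp1, Igf2bp3, Sgce, Il17rb, Ptk7, Cd63, Alox5, Cma1, Alas2, Elane, Snhg9 and the uncalled genes given beside them were chosen after their values were seen.

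**Figure D1:**
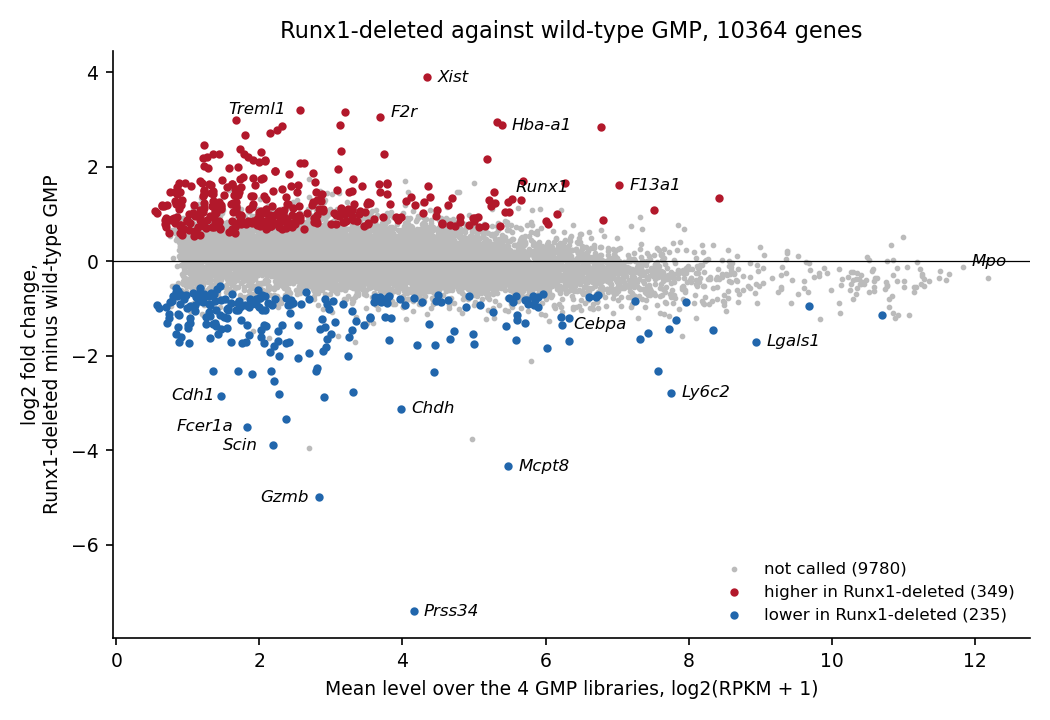
Mean level over the 4 GMP libraries (x axis, log2(RPKM + 1)) against the log2 fold change, Runx1-deleted minus wild-type GMP (y axis), for 10364 genes, with 349 called higher in red and 235 called lower in blue. Prss34, at -7.41, lies furthest from 0, and the abundant granule gene Mpo lies at -0.35 and was not called.

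The promoters of the 5 marker genes given with this comparison and of Gzmb, the second largest fall, are shown because the deleted gene encodes a factor that binds the RUNX core motif. Each window runs from 250 bases before to 50 bases after the RefSeq start on GRCm38.p6, the build of the RefSeq promoters and not that of the expression values, 5′ to 3′ on the gene's own strand, with TGTGGT or its reverse complement ACCACA in capitals. Prss34 and Mcpt8 encode basophil proteases, Gzmb encodes the cytotoxic protease granzyme B, Scin encodes an actin-severing protein, Treml1 encodes a platelet granule receptor, and F2r encodes the thrombin receptor PAR1.
Prss34, chr17:25298144-25298443, plus strand: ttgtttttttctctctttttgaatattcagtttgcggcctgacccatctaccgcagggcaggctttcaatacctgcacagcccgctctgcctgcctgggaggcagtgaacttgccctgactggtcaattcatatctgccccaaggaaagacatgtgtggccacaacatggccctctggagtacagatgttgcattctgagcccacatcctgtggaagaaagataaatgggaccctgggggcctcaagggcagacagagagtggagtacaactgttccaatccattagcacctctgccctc
Mcpt8, chr14:56085148-56085447, minus strand: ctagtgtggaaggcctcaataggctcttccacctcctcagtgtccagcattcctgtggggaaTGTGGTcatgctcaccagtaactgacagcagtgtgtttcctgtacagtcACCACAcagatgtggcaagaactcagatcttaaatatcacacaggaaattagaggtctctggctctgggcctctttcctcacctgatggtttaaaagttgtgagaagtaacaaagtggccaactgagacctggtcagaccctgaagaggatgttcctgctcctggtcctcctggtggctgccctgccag
Gzmb, chr14:56262285-56262584, minus strand: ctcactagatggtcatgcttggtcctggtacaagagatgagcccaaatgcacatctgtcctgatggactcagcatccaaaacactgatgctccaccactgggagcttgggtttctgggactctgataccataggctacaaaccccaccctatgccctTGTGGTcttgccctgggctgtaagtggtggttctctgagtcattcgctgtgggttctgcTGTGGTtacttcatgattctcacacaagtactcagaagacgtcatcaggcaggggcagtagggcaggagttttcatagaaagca
Scin, chr12:40134179-40134478, minus strand: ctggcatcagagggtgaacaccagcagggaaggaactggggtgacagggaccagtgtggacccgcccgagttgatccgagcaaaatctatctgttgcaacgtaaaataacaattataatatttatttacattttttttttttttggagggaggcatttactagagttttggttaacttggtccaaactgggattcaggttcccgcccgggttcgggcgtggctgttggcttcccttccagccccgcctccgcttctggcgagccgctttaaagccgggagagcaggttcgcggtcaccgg
Treml1, chr17:48359666-48359965, plus strand: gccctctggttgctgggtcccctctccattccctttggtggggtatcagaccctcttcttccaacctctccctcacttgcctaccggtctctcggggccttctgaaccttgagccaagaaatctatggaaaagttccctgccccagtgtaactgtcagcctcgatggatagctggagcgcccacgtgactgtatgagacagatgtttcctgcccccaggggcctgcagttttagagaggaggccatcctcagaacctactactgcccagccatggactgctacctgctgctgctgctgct
F2r, chr13:95618417-95618716, minus strand: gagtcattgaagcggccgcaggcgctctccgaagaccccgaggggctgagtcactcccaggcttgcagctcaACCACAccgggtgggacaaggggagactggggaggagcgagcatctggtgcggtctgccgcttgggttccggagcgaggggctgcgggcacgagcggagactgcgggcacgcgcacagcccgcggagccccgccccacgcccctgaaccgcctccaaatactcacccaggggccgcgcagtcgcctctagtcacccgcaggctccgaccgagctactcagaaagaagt
Mcpt8 held the motif 188 and 139 bases before the start, Gzmb 93 and 34 bases before it, and F2r 178 bases before it, while the windows of Prss34, Scin and Treml1 held no match. Of 12 genes whose windows were read, Fcer1a and 1 of the 2 starts of Runx1 also held it, and Gp5, Selp, Tek and Cebpa did not. Across genes with a RefSeq window, TGTGGT on either strand stood in 52 of 246 genes called higher (21.1%), in 26 of 170 called lower (15.3%) and in 1141 of 7555 tested (15.1%). Among all 32851 windows 16.8% held it, so the share among lower genes was near that of all genes tested. These matches describe letters in a window and were not tested as binding sites.

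Basophil protease and effector genes held the largest falls among all called genes. Prss34, a basophil serine protease, had 0.434 and 0.303 RPKM in Runx1-deleted GMP, against 243 and 219.5 RPKM in wild-type GMP. These values rest on 29 and 17 reads in Runx1-deleted GMP and on 11796 and 5566 reads in wild-type GMP. Its level averaged 0.369 ± 0.0928 RPKM in Runx1-deleted and 231 ± 16.9 RPKM in wild-type GMP (SD, n = 2 each), and it fell by 7.41 ± 0.24 (SE, limma adjusted p = 4.80e-08). Mcpt8, a basophil granule protease, had 9.29 and 8.50 RPKM in Runx1-deleted GMP, against 183 and 217 RPKM in wild-type GMP. Unlike Prss34 it kept a clearly measured level without Runx1, from 428 and 329 reads, and it fell by 4.34 ± 0.24 (limma adjusted p = 2.02e-06). Gzmb had 0.296 and 0.214 RPKM in Runx1-deleted GMP and 45.8 and 33.4 RPKM in wild-type GMP, and it fell by 5.0 ± 0.17 (limma adjusted p = 4.80e-08).

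Of the 28 genes of the basophil and mast cell list 19 were tested, and 7 were lower and 3 higher (36.8% and 15.8%, against 2.27% and 3.37% of all genes tested). The 7 lower genes and 2 of the 3 higher ones stayed called whichever GMP library was left out. Fcer1a, which binds IgE as the alpha chain of the high-affinity receptor, had 6 reads in one Runx1-deleted library and none in the other (0.106 and 0 RPKM), against 10.2 and 11.8 RPKM in wild-type GMP (change -3.51 ± 0.18, limma adjusted p = 1.60e-06). The other chains of that receptor were not called: Ms4a2, the beta chain, had 19.5 and 11.1 RPKM in Runx1-deleted GMP and 34.4 and 23.5 RPKM in wild-type GMP. Fcer1g, the gamma chain that other Fc receptors share, had 52.7 and 74.3 RPKM in Runx1-deleted GMP and 134 and 109.7 RPKM in wild-type GMP. Alox5, the enzyme that starts leukotriene synthesis, fell by 2.32, Cd63, a tetraspanin of granule membranes, fell by 2.33, and Cma1, a mast cell chymase, fell by 1.74 (limma adjusted p at most 4.57e-04).

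Not all genes of this lineage were lower. Cd200r3 and Cd200r4, activating receptors of the CD200 receptor family on basophils and mast cells, were higher by 1.76 and 2.86, with Cd200r4 at 12.6 and 12.2 RPKM in Runx1-deleted GMP and 0.723 and 0.987 RPKM in wild-type GMP (limma adjusted p = 1.89e-06). Cpa3, a mast cell carboxypeptidase, had 228 and 213 RPKM in Runx1-deleted GMP and 135 and 95.5 RPKM in wild-type GMP and was not called (limma adjusted p = 0.0804). Hdc, which makes histamine, had 119.6 and 108 RPKM in Runx1-deleted GMP and 110.2 and 97.1 RPKM in wild-type GMP (limma adjusted p = 0.675). The list thus split by gene, with some of its genes near 0, some near the wild-type level and some above it. Its median was -0.27, and 0.11 once the trend with gene length described below was removed. The summed level of the list was 833 and 783 RPKM in Runx1-deleted GMP and 1664 and 1555 RPKM in wild-type GMP.

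**Figure D2:**
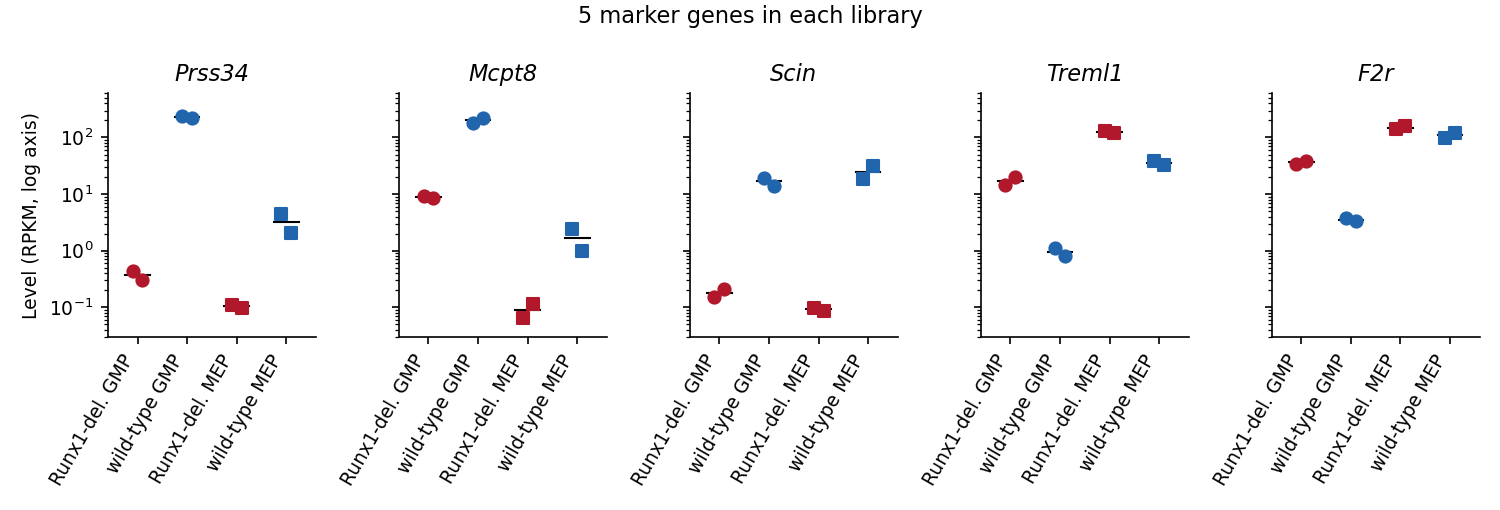
Level (RPKM, log axis) of Prss34, Mcpt8, Scin, Treml1 and F2r in each library of Runx1-deleted and wild-type GMP (circles) and MEP (squares), with Runx1-deleted in red, wild type in blue and the group mean as a bar. In GMP the first 3 genes lie lower and the last 2 higher in both Runx1-deleted libraries, and Scin is low in Runx1-deleted libraries of both gates.

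Some eosinophil granule genes were lower too. Of 8 tested genes of this list 4 were lower (against 2.27% of all genes tested; 2 without a filter on low levels, without wild-type GMP 1 or without Runx1-deleted GMP 2) and none was called higher by limma (0 higher also at an unadjusted p under 0.05, and 0 with limma voom on whole reads), and Epx and Ear2 stayed called whichever GMP library was left out. Epx, eosinophil peroxidase, had 10.9 and 7.32 RPKM in Runx1-deleted GMP and 41.7 and 25.9 RPKM in wild-type GMP (change -1.77 ± 0.24, limma adjusted p = 0.00126). Ear2, an eosinophil ribonuclease with near-identical paralogs that can share its reads, had 1.48 and 1.09 RPKM in Runx1-deleted GMP and 9.43 and 6.10 RPKM in wild-type GMP (change -1.92). Prg2, the major basic protein, had 272 and 140.4 RPKM in Runx1-deleted GMP and 519 and 557 RPKM in wild-type GMP (limma adjusted p = 0.0426), and without 1 library its adjusted p was 0.119 (wild-type GMP 1), 0.324 (wild-type GMP 2) or 0.315 (Runx1-deleted GMP 2).

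In the azurophil granule program, the main product of GMP, some genes were lower. Mpo, myeloperoxidase, had 3743 and 4546 RPKM in Runx1-deleted GMP and 5644 and 4918 RPKM in wild-type GMP and was not called (change -0.35 ± 0.23, limma adjusted p = 0.363). It had the highest level of all tested genes in 3 of the 4 libraries and the third highest in wild-type GMP 2. Of 18 tested primary granule genes 6 were lower and none higher (33.3% lower, with 2 higher at an unadjusted p under 0.05 and 0 higher with limma voom), but only Prss57 and Fcnb stayed called whichever GMP library was left out. Prss57, a neutrophil serine protease, had 18.3 and 14.7 RPKM in Runx1-deleted GMP and 49.5 and 66.7 RPKM in wild-type GMP (change -1.75 ± 0.20, limma adjusted p = 3.56e-04). Fcnb, ficolin B, had 2.50 and 3.14 RPKM in Runx1-deleted GMP and 10.6 and 16.6 RPKM in wild-type GMP. Elane, neutrophil elastase, had 1237 and 1023 RPKM in Runx1-deleted GMP and 2353 and 2638 RPKM in wild-type GMP, with an adjusted p of 0.0226 that became 0.0706 and 0.223 without wild-type GMP 1 and 2, and 0.0815 and 0.197 without Runx1-deleted GMP 1 and 2. The proteases Prtn3 and Ctsg were not called, with 1038 and 996 RPKM of Prtn3 in Runx1-deleted GMP and 1706 and 1588 RPKM in wild-type GMP. The list's median was -0.64, and -0.38 with the length trend removed. Its summed level was 10856 and 11002 RPKM in Runx1-deleted GMP and 16878 and 16884 RPKM in wild-type GMP. Over all genes tested 3.37% were called higher and 2.27% lower. In the late neutrophil list these shares were 25% and 0%, with a median of -0.095. At an unadjusted limma p under 0.05, 4 late neutrophil genes were higher and 4 lower. Of 16 tested late neutrophil genes 4 were higher (Csf3r, the G-CSF receptor, Cxcr2, Itgb2 and Lrg1), and none of these calls held in every fit without 1 GMP library. Csf3r, for one, had 62.6 and 64.6 RPKM in Runx1-deleted GMP and 37.0 and 25.1 RPKM in wild-type GMP, with an adjusted p of 0.0254 that became 0.294 without wild-type GMP 2, 0.168 without Runx1-deleted GMP 1 and 0.18 without Runx1-deleted GMP 2. For Cxcr2 the adjusted p of 0.00887 was 0.0967, 0.112 and 0.0775 without the same libraries in that order, and for Itgb2 the adjusted p of 0.0174 was 0.155, 0.133 and 0.172. For Lrg1 it was 0.0181, and 0.0800 without wild-type GMP 1, 0.0536 without wild-type GMP 2 and 0.193 without Runx1-deleted GMP 1.

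Among 26 tested monocyte and macrophage genes 5 were lower and 2 higher, and 3 of these calls held in every fit without 1 GMP library. The lower and higher shares were 19.2% and 7.69%, against 2.27% and 3.37% of all genes tested. Ly6c2, the surface antigen that marks inflammatory monocytes and shares sequence with Ly6c1, had 76.5 and 85.9 RPKM in Runx1-deleted GMP and 507 and 631 RPKM in wild-type GMP. Ly6c2 fell by 2.79 ± 0.30 (limma adjusted p = 2.45e-04). F13a1, the coagulation factor made by monocytes and megakaryocytes, went the other way, with 211 and 246 RPKM in Runx1-deleted GMP and 85.3 and 64.0 RPKM in wild-type GMP (change 1.61 ± 0.24, limma adjusted p = 0.00213). Fn1, fibronectin, was higher by 1.99. The monocyte regulators Irf8 and Csf1r were not called, with 77.0 and 111 RPKM of Irf8 in Runx1-deleted GMP and 139.8 and 98.6 RPKM in wild-type GMP. Of 16 tested dendritic cell and MHC class II genes 5 were lower and none higher (31.3% lower, with 1 higher at an unadjusted p under 0.05 and 0 higher with limma voom), and H2-Ab1 alone stayed called whichever GMP library was left out. H2-Ab1, a class II antigen-presenting chain, had 28.1 and 37.1 RPKM in Runx1-deleted GMP and 86.2 and 76.8 RPKM in wild-type GMP (change -1.31 ± 0.19, limma adjusted p = 0.002). For H2-Eb1 the adjusted p was 0.00546, and 0.0555 without wild-type GMP 1 or 0.0579 without Runx1-deleted GMP 1.

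Megakaryocyte and platelet genes held the largest share of higher genes of the 26 lists examined. Of 30 tested genes 12 were higher and 1 was lower (40.0% higher, against 3.37% of all genes tested), and 9 of the 12 and the lower gene stayed called whichever GMP library was left out. The list's median was 0.79, and 0.74 with the length trend removed. Treml1, a receptor stored in platelet granules, had 14.3 and 20.1 RPKM in Runx1-deleted GMP and 1.11 and 0.786 RPKM in wild-type GMP. It rose by 3.21 ± 0.21 (limma adjusted p = 5.00e-06). F2r had 34.2 and 38.4 RPKM in Runx1-deleted GMP and 3.70 and 3.29 RPKM in wild-type GMP, and it rose by 3.05 ± 0.17 (limma adjusted p = 2.02e-06). Gp5, a subunit of the von Willebrand factor receptor of platelets, had 10.3 and 12.5 RPKM in Runx1-deleted GMP and 0.906 and 0.723 RPKM in wild-type GMP (change 2.77). Selp, the adhesion molecule P-selectin, had 21.2 and 16.6 RPKM in Runx1-deleted GMP and 3.39 and 2.47 RPKM in wild-type GMP (change 2.34).

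Further members of this list were higher. Itga2b, which encodes the CD41 antigen that the gate excluded, had 84.4 and 71.6 RPKM in Runx1-deleted GMP and 34.6 and 28.2 RPKM in wild-type GMP (change 1.29 ± 0.19, limma adjusted p = 0.00189). Its RNA was thus measured at both genotypes in cells sorted as CD41-. The collagen-pathway adaptor Lat rose by 1.36, the ATP receptor P2rx1 by 1.22 and the podoplanin receptor Clec1b by 1.98 (limma adjusted p at most 0.00277). Ptgs1, cyclooxygenase 1, which platelets use but which was not a member of the list, had 28.2 and 28.9 RPKM in Runx1-deleted GMP and 5.20 and 5.02 RPKM in wild-type GMP (change 2.27). The serpin Serpine2 was the lower member of the list, with 3.76 and 2.47 RPKM in Runx1-deleted GMP and 13.7 and 13 RPKM in wild-type GMP.

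The abundant alpha granule chemokines of mature megakaryocytes did not follow. Pf4 had 2.63 and 11.1 RPKM in Runx1-deleted GMP and 3.80 and 3.59 RPKM in wild-type GMP, and Ppbp had 1.30 and 10.6 RPKM in Runx1-deleted GMP and 4.14 and 0.40 RPKM in wild-type GMP. For both genes the second Runx1-deleted library was several times above the first, and neither was called (limma adjusted p = 0.551 and 0.457). The regulators Gata1, Fli1 and Nfe2 were not called either, with 7.94 and 11 RPKM of Gata1 in Runx1-deleted GMP and 11.6 and 7.96 RPKM in wild-type GMP. The summed level of the whole list was 551 and 644 RPKM in Runx1-deleted GMP and 385 and 318 RPKM in wild-type GMP, and its 8 members under 1 RPKM in all 4 libraries included Gp6 and P2ry12. The part of megakaryocyte-lineage cells in these changes was not tested.

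**Figure D3:**
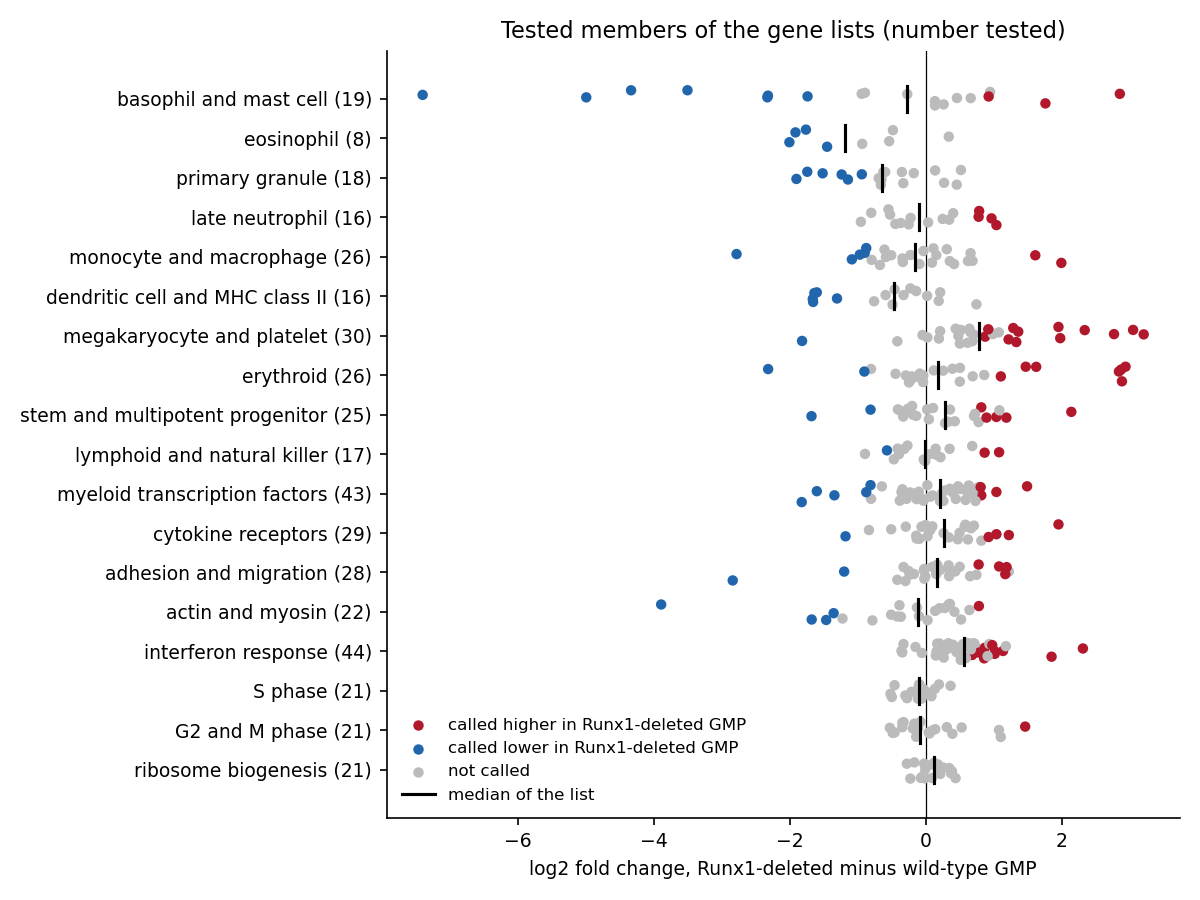
Log2 fold change, Runx1-deleted minus wild-type GMP (x axis), of each tested gene of 18 gene lists (rows, with the number tested), with genes called higher in red, called lower in blue and not called in grey, and a bar at the median of the list. Calls lie to the right in the megakaryocyte and platelet and the interferon response lists and to the left in the eosinophil and primary granule lists, while the basophil and mast cell list spreads from -7.41 to 2.86.

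Globin genes rose while most other erythroid genes were not called. In the erythroid list 26.9% of tested genes were called higher and 7.69% lower, against 3.37% and 2.27% of all genes tested. Of 26 tested erythroid genes 7 were higher and 2 lower, and 6 of the 7 stayed called whichever GMP library was left out. Beta-s, an adult beta-globin, had 229 and 376 RPKM in Runx1-deleted GMP and 31.2 and 51.3 RPKM in wild-type GMP (change 2.84 ± 0.34, limma adjusted p = 5.49e-04), and Hba-a1, Hba-a2 and Hbb-b1 rose by 2.88 to 2.94. The globin copies are nearly identical and reads can fall to either, so the level of each one is uncertain. Alas2, the erythroid enzyme that starts haem synthesis, and Slc4a1, the band 3 anion exchanger, rose as well, by 1.62 and 1.47. Alas2 had 2.75 and 3.99 RPKM and Slc4a1 had 2.07 and 1.82 RPKM in Runx1-deleted GMP. The 2 lower genes were Car1 and Icam4. Car1 had 0.496 and 1.67 RPKM in Runx1-deleted GMP and 7.62 and 10.6 RPKM in wild-type GMP (change -2.32, limma adjusted p = 0.00478). Icam4 had 5.46 and 5.71 RPKM in Runx1-deleted GMP and 11.6 and 11.1 RPKM in wild-type GMP (change -0.91, limma adjusted p = 0.0485). Neither of these lower calls held in every fit without 1 GMP library. Klf1, the erythroid regulator, had 1.60 and 2.61 RPKM in Runx1-deleted GMP and 5.53 and 3.41 RPKM in wild-type GMP and was not called (limma adjusted p = 0.103), and Epor, the erythropoietin receptor, stayed under 1 RPKM in all 4 libraries. The list sums were 627 and 950.4 RPKM in Runx1-deleted GMP and 284 and 298 RPKM in wild-type GMP, and the part of red cell RNA in this difference was not tested.

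In the stem and multipotent progenitor list 5 of 25 tested genes were higher and 2 lower (20% and 8%, against 3.37% and 2.27% of all genes tested). Tek, the angiopoietin receptor TIE2 of stem cells and endothelium, had 7.06 and 6.69 RPKM in Runx1-deleted GMP and 1.02 and 0.577 RPKM in wild-type GMP, and it rose by 2.14 ± 0.21 (limma adjusted p = 1.36e-04). Kdr, a VEGF receptor, rose to 1.22 and 1.49 RPKM in Runx1-deleted GMP, against 0.0322 and 0.0352 RPKM in wild-type GMP, and Ifitm1 fell by 1.68. Tek, Kdr and Ifitm1 stayed called whichever GMP library was left out. Cd34 and Flt3 were not called. Of 16 stromal and endothelial genes 12 stayed under 1 RPKM in all 4 libraries, and Kdr was the called one among the 4 tested. The endothelial cadherin Cdh5 reached at most 0.0544 RPKM in Runx1-deleted and 0.0693 RPKM in wild-type GMP. In the lymphoid and natural killer list 11.8% of tested genes were called higher and 5.88% lower. Of 17 tested lymphoid and natural killer genes 2 were higher and 1 lower, and none of these calls held in every fit without 1 GMP library.

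Among 43 tested myeloid transcription factors 4 were higher and 5 lower (9.30% and 11.6%, against 3.37% and 2.27% of all genes tested). Cebpa, the factor that drives entry into the granulocyte lineage, had 43.7 and 49.1 RPKM in Runx1-deleted GMP and 107 and 133 RPKM in wild-type GMP, and it fell by 1.35 ± 0.18 (limma adjusted p = 9.69e-04). Rxra, a retinoid receptor, had 6.07 and 7.22 RPKM in Runx1-deleted GMP and 1.78 and 1.65 RPKM in wild-type GMP, and it rose by 1.49 ± 0.20 (limma adjusted p = 0.00106). Of the 9 calls these 2 held in every fit without 1 GMP library. Lmo4, a LIM-domain cofactor, had 28.3 and 39.6 RPKM in Runx1-deleted GMP and 118 and 125 RPKM in wild-type GMP, with an adjusted p of 0.00263 that became 0.0527 without wild-type GMP 2. The lineage regulators Sfpi1 (PU.1), Gfi1, Myb and Myc were not called, with Sfpi1 at 107 and 146 RPKM in Runx1-deleted GMP and 160.2 and 145 RPKM in wild-type GMP.

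Runx1 RNA itself was higher. It had 63.0 and 72.3 RPKM in Runx1-deleted GMP and 28.5 and 26.8 RPKM in wild-type GMP, and it rose by 1.26 ± 0.20 (limma adjusted p = 0.00276). The value sums reads over the whole gene model, so it does not check the loss of the floxed exon, and the labels were taken as given. Of 9 tested RUNX family, partner and corepressor genes Runx1 was the called one. Cbfb had 42.7 and 46.2 RPKM in Runx1-deleted GMP and 56.1 and 54.4 RPKM in wild-type GMP, and Runx3 had 35.9 and 41.7 RPKM in Runx1-deleted GMP and 39.7 and 37.8 RPKM in wild-type GMP (limma adjusted p = 0.289 and 0.998), while the adjusted p of Runx2 was 0.116. Of the genes behind the sorted antigens, Kit had 96.2 and 95.2 RPKM in Runx1-deleted GMP and 70.0 and 65.2 RPKM in wild-type GMP. Fcgr3, behind CD16, had 58.1 and 61.3 RPKM in Runx1-deleted GMP and 85.0 and 95.5 RPKM in wild-type GMP. Fcgr2b, behind CD32, went the other way, with 69.2 and 60.2 RPKM in Runx1-deleted GMP and 49.3 and 40.0 RPKM in wild-type GMP. Eng, behind CD105, had 31.5 and 43.2 RPKM in Runx1-deleted GMP and 25.8 and 19.0 RPKM in wild-type GMP. These genes were not called in the fit over the 10 libraries, while Kit, Fcgr3 and Eng passed the threshold in some alternative fits. Slamf1, the CD150 gene, was too low for the test, with 0.962 and 1.38 RPKM in Runx1-deleted GMP and 0.0934 and 0.125 RPKM in wild-type GMP.

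Scin, the actin-severing protein scinderin, had 0.152 and 0.210 RPKM in Runx1-deleted GMP and 19.5 and 14.1 RPKM in wild-type GMP, and it fell by 3.90 ± 0.24 (limma adjusted p = 3.89e-06). Gsn, the related gelsolin, fell by 1.47, to 1.63 and 2.14 RPKM in Runx1-deleted GMP, against 7.26 and 6.64 RPKM in wild-type GMP. Of 22 tested actin and myosin genes 4 were lower and 1 higher (18.2% and 4.55%, against 2.27% and 3.37% of all genes tested), and Scin and Gsn held in every fit without 1 GMP library. Cdh1, E-cadherin, rested on 6 and 7 reads in Runx1-deleted GMP (0.0248 and 0.0344 RPKM), against 1091 and 605 reads in wild-type GMP (6.20 and 6.58 RPKM), a change of -2.84 ± 0.13 (limma adjusted p = 4.55e-07). Itga9, an integrin chain, rose by 1.19, and of 28 tested adhesion genes 4 were higher and 2 lower (14.3% and 7.14%). Of 29 tested cytokine receptors 4 were higher and 1, the interleukin 1 receptor Il1r1, was lower (13.8% and 3.45%), and the call of Il1r1 held in every fit without 1 GMP library.

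The called interferon response genes were all higher in the fit over the 10 libraries. Of 44 tested genes 11 were higher and none lower by limma (25% higher, against 3.37% of all genes tested). At an unadjusted limma p under 0.05, 27 were higher and 0 lower, against 1351 higher and 1047 lower of all 10364 genes tested. With the length trend removed 17 were higher, against 415 of all genes tested. The list's median was 0.57. Oas2 and Oas3, antiviral synthetases that sense double-stranded RNA, held in every fit without 1 GMP library, and Oas2 had 7.57 and 8.47 RPKM in Runx1-deleted GMP and 1.05 and 0.608 RPKM in wild-type GMP (change 2.31 ± 0.31, limma adjusted p = 9.82e-04). The count was 6 without wild-type GMP 1, 2 without wild-type GMP 2, 3 without Runx1-deleted GMP 1 and 2 without Runx1-deleted GMP 2. Isg15, a ubiquitin-like protein of the response, was not called, with 6.60 and 8.09 RPKM in Runx1-deleted GMP and 5.38 and 5.84 RPKM in wild-type GMP (limma adjusted p = 0.478).

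Of 21 S phase genes and 21 ribosome biogenesis genes limma called 0, and 0 of them had an unadjusted p under 0.05, and limma voom on whole reads called 0 as well. Their medians were -0.10 and 0.12, that of the S phase genes turning to 0.08 after quantile normalization. Of 21 genes of G2 and M phase Cenpe was the called one, with an adjusted p of 0.0467 that was 0.0886 to 0.417 without 1 GMP library. Mki67 had 58.1 and 51.4 RPKM in Runx1-deleted GMP and 27 and 22.9 RPKM in wild-type GMP and was not called (limma adjusted p = 0.136). Of 12 tested G1 cyclins and inhibitors 2 were lower (16.7%), of 16 p53 target and apoptosis genes 2 were higher and 2 lower (12.5% each way), and of 15 NF-kB and inflammatory genes 2 were higher and 1 lower (13.3% and 6.67%), against 3.37% higher and 2.27% lower of all genes tested. Of these calls that of Tlr1 alone held in every fit without 1 GMP library. Of 15 immediate early and heat shock genes 0 were called, with 1 at an unadjusted p under 0.05 and 0 called by limma voom.

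Some genes were close to silent in one group. In 11 of the 10364 genes tested the wild-type mean was at least 5 RPKM and both Runx1-deleted libraries were under 1 RPKM. In 11 others the reverse held, and this rule itself fixes the gap between the groups. Besides the genes above, the first set held Csrp3, a muscle LIM protein, at 0.636 and 0.624 RPKM in Runx1-deleted GMP and 14.2 and 17.0 RPKM in wild-type GMP, and Il17rb, the interleukin 25 receptor, at 0.433 and 0.452 RPKM in Runx1-deleted GMP and 6.96 and 5.61 RPKM in wild-type GMP. It also held Bpifc, Ptk7, 9030619P08Rik and the short RNA gene Snhg9, whose wild-type level came from 1 library (2.33 and 193 RPKM) and which was not called. The second set held the cytoskeletal linker Tjp1, the protocadherin Pcdh7, the membrane repair protein Myof, the transcription factor Sox6, the RNA-binding protein Igf2bp3, the serine protease Tmprss3, Sgce and C4b. Pcdh7 had 8.24 and 7.30 RPKM in Runx1-deleted GMP and 0.428 and 0.327 RPKM in wild-type GMP (change 2.67 ± 0.27, limma adjusted p = 1.88e-04). C4b, complement factor 4, had 13.1 and 4.77 RPKM in Runx1-deleted GMP and 0.0838 and 0.178 RPKM in wild-type GMP, and its reads may be shared with its near-identical copy C4a. Outside these sets Chdh, choline dehydrogenase, had 4.24 and 4.45 RPKM in Runx1-deleted GMP and 43.6 and 47.7 RPKM in wild-type GMP, and it fell by 3.12 ± 0.16 (limma adjusted p = 1.60e-06). Ecm1, an extracellular matrix protein, rose by 3.15, and Socs3, a brake on cytokine signalling, rose by 2.12.

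**Figure D4:**
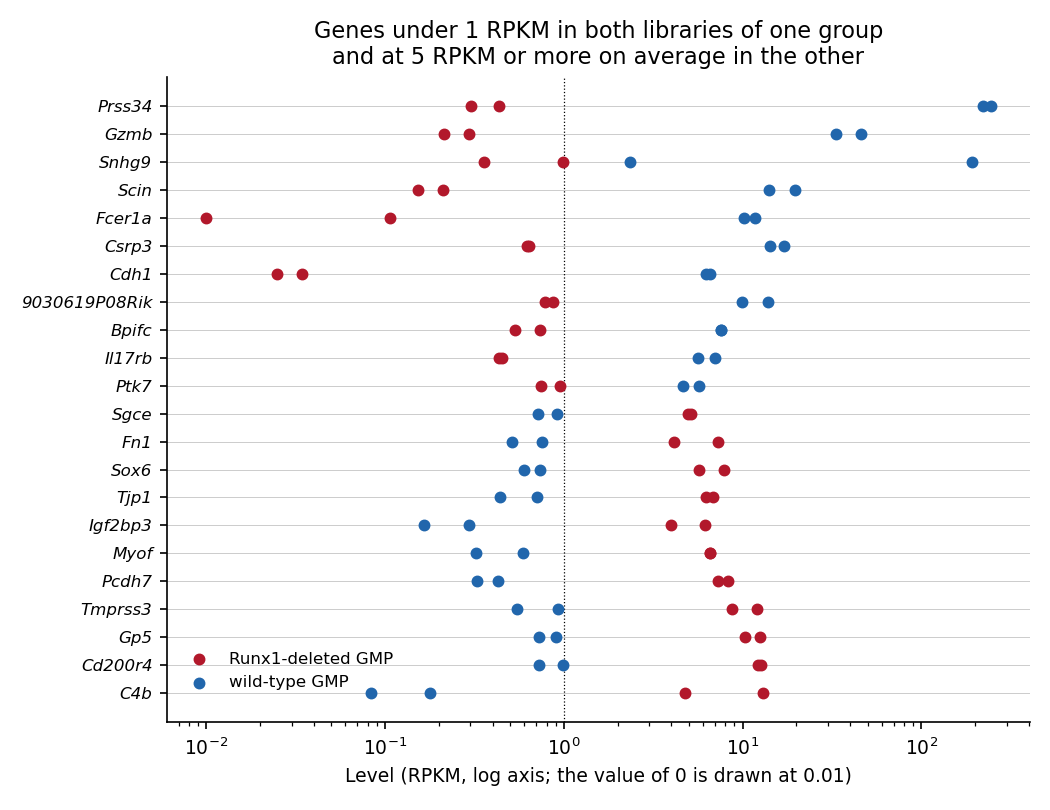
Level in each library (x axis, RPKM, log axis) of the 22 genes (rows) that were under 1 RPKM in both libraries of one GMP group and at 5 RPKM or more on average in the other, with Runx1-deleted GMP in red, wild-type GMP in blue and a dotted line at 1 RPKM. The rule that chose the genes fixes the gap between the groups, and Snhg9 lies at 2.33 and 193 RPKM in wild-type GMP.

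The change of the marker genes was also set against that in MEP, the sorted megakaryocyte-erythroid progenitors of the same 2 genotypes. The measure was the difference of both effects in the same fit, where 141 of 10364 genes were called (1.36%). In MEP the wild-type libraries were run on lanes 3 and 5, and both Runx1-deleted ones on lane 5. Lane thus stood differently against genotype in MEP than in GMP, and its part in the difference was not tested. The marker genes were given with the GMP comparison, and their change in GMP is part of this difference, so a large difference was favoured. Prss34 fell by 1.88 in MEP, and its change in GMP minus that in MEP was -5.53 ± 0.34 (limma adjusted p = 2.71e-05). For Mcpt8 the difference was -3.09 ± 0.34 (limma adjusted p = 0.00118), though with a pseudocount of 0.1 it was -1.34 with an adjusted p of 0.477. F2r did not pass the test in MEP, where it had 143 and 158 RPKM in Runx1-deleted and 99.8 and 122 RPKM in wild-type cells, and its difference was 2.61 ± 0.24 (limma adjusted p = 3.80e-04). Treml1 rose in MEP too, by 1.78, and its difference of 1.43 ± 0.29 had an adjusted p of 0.0402. Without 1 GMP or MEP library that p passed the threshold of 0.05 only when wild-type MEP 2 was the one left out, and it was 0.0507 without Runx1-deleted GMP 1, 0.0626 without wild-type MEP 1, 0.0738 without wild-type GMP 1, 0.116 and 0.144 without Runx1-deleted MEP 1 and 2, 0.207 without wild-type GMP 2 and 0.225 without Runx1-deleted GMP 2. Scin fell by 4.50 in MEP, and its difference of 0.60 ± 0.34 was not called (limma adjusted p = 0.742).

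Fold changes also went with gene length. The median was 0.26 in the 2591 longest genes (at least 4216 bp) and -0.27 in the 2595 shortest (up to 1764 bp), a gap of 0.53. Genes of 183 to 1096 bp, the shortest of 10 equal length bins, were called higher in 1.64% and lower in 5.29%, while those of 6054 to 23495 bp, the longest, were called higher in 4.53% and lower in 1.06%. Measured per library against the mean of the 4, long minus short genes gave 0.31 and 0.23 in Runx1-deleted GMP and -0.23 and -0.30 in wild-type GMP, so the trend separated the groups as lane did, and its cause was not tested. Removing the trend in each library gave 766 calls, among which were 505 of the 584 (86.5%). Nkg7 and Prg2, which are short, lost theirs, and the median changes of the basophil and late neutrophil lists turned to the other sign.

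**Figure D5:**
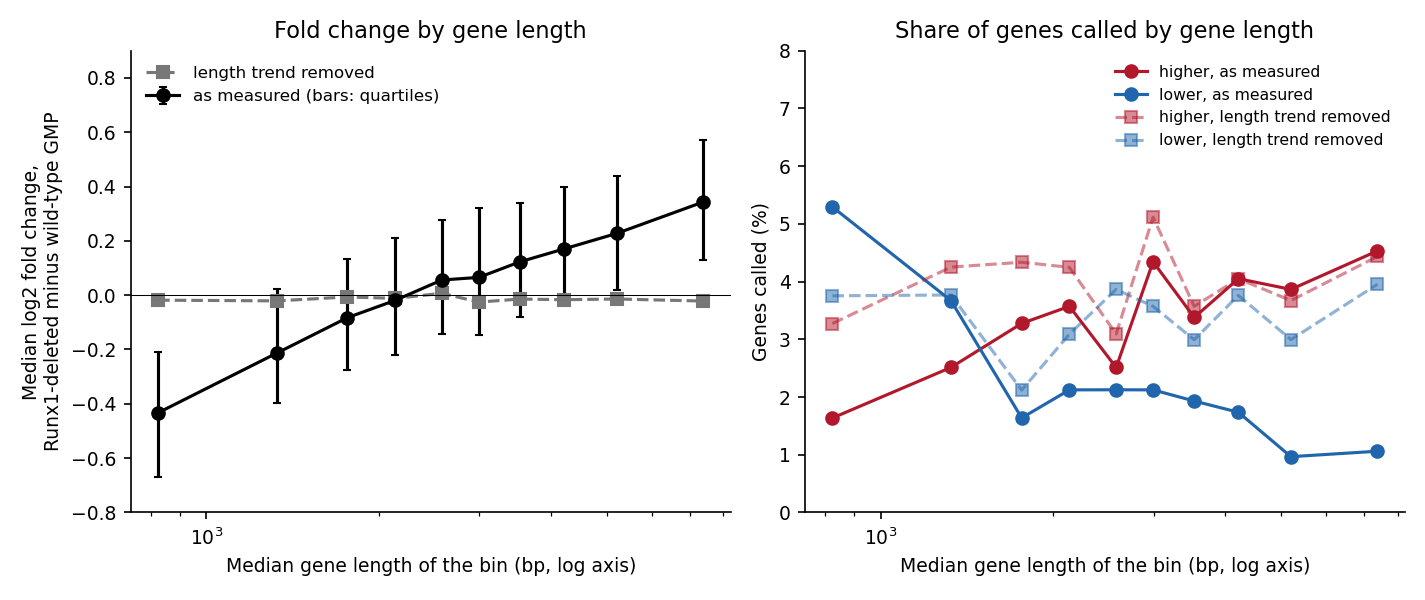
Left, the median log2 fold change, Runx1-deleted minus wild-type GMP, in each of 10 length bins (x axis, bp, log axis), with bars at the quartiles, as measured (black) and with each library's length trend removed (grey). Right, the share of genes called higher (red) and lower (blue) in each bin, with the length trend removed shown as dashed lines, where the measured share of lower genes is 5.29% in the shortest bin and 1.06% in the longest.

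Sex-linked genes differed between libraries as well. Xist, the RNA of the inactive X chromosome, had 102 and 58.2 RPKM in Runx1-deleted GMP and 9.91 and 1.54 RPKM in wild-type GMP (change 3.89 ± 0.87, limma adjusted p = 0.0242). The call was lost without wild-type GMP 2 (adjusted p = 0.353), Runx1-deleted GMP 1 (0.182) or Runx1-deleted GMP 2 (0.0754). The Y-linked gene Eif2s3y had 9.61 and 4.97 RPKM in Runx1-deleted GMP and 13 and 16.7 RPKM in wild-type GMP and was not called (limma adjusted p = 0.174), though its adjusted p was 0.0154 with library number as a block and 0.0486 with the 4 GMP libraries alone. Each of the 4 libraries held both Xist and Y-linked RNA. The part of the sex of the animals in the other changes was not tested.

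In the authors' deposited table, Baggerley's test for this comparison gave an FDR-corrected p under 0.05 for 215 of the genes tested here (2.07%). Of these 98 were called here too, which is 45.6% of the genes in the authors' deposited table past that threshold and 16.8% of the 584 genes called here. Prss34 had a corrected p of 9.77e-80 in the authors' deposited table, and the other marker genes had values from 2.50e-23 for Mcpt8 to 2.23e-05 for Treml1.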

How the data were processed

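RNA from sorted bone marrow cells was sequenced after TruSeq V2 LT or NEBNext Ultra library preparation, and the labels do not say which library had which. The authors deposited RPKM per gene for each library and p-values of Baggerley's test between groups (FDR-corrected, per the file headers). Per the submitters' processing notes, reads were placed on mm9; the aligner is not given in the sources used here. Library totals and gene lengths were worked back from the RPKM values. For each gene the smallest length that gave whole reads within 0.01 read in every library was taken. Such a length was found for 19335 genes, and not for 1. Another 3904 genes were at 0, and 214 lengths were settled with the annotation. Whole reads were thus the rule of choice, and a length found this way can be a divisor of the true one, so lengths and reads are estimates.

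Tests used limma 3.58.1 (R 4.3.3) on log2(RPKM + 1), with 1 mean for each of the 5 groups, a trend of the variance with the mean and Benjamini-Hochberg adjustment over 10364 genes, those reaching 1 RPKM in 2 or more of the 4 GMP libraries. All 10 libraries held 20.8 to 54.9 M reads, 75.3% to 83.3% of them in genes, so 1 read in a gene of 1 kb was worth 0.0182 to 0.0480 RPKM in the GMP libraries, and 3 reads, taken as the limit of detection for counting error only, 0.0546 to 0.144 RPKM. The rule for named genes took the 5 marker genes, the 15 largest rises and 15 largest falls among called genes whose groups do not overlap and whose higher group averages at least 5 RPKM, up to 4 called members a direction from each gene list, the RUNX and sort marker lists, Xist and the Y-linked genes, and the report names the others that were added after their values were seen. The genes, lists and tests were chosen with earlier results of these data known. Of the list genes, 10 were matched through older symbols and 4 (Ly6g, Bin2, Hbb-bt and Ahsp) had no match. Promoters came from RefSeq (GRCm38.p6) and were matched by symbol. Alternatives were the 4 GMP libraries alone, no wild-type MEP, group weights, no variance trend, quantile normalization and no low-level filter. Others were a filter at a mean of 5 RPKM, 0.1 as pseudocount, and removal of each library's length trend (lowess, span 0.4). Blocks by replicate or library number were also used, and each GMP or MEP library was left out in turn. The XMP libraries were not left out. Limma voom on the recovered whole reads was an alternative chosen after seeing the data. Results for some genes are not reported here.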

Additional observations from a re-analysis of the deposited data

Results flagged for a closer look

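For 4 of the 5 marker genes the change in GMP minus that in MEP (log2 scale) passed the test of the common fit. Over all genes tested, 141 of 10364 passed it (1.36%). The marker genes were given with the GMP comparison, and their change in GMP is part of this difference. A large difference was thus favoured, and the count of 4 is not an independent result. Lane stood differently against genotype in MEP than in GMP, and its part in the difference was not tested. The difference was -5.53 for Prss34 (limma adjusted p = 2.71e-05), where Runx1-deleted MEP had 0.110 and 0.0971 RPKM and wild-type MEP 4.36 and 2.06 RPKM. It was -3.09 for Mcpt8 (limma adjusted p = 0.00118), where Runx1-deleted MEP had 0.0638 and 0.113 RPKM and wild-type MEP 2.39 and 0.971 RPKM. It was 2.61 for F2r (limma adjusted p = 3.80e-04). For Treml1 it was 1.43 (limma adjusted p = 0.0402, and above the threshold at 0.0507 to 0.225 in 7 of 8 fits without 1 library), where Runx1-deleted MEP had 129 and 120.9 RPKM and wild-type MEP 38.9 and 32.6 RPKM. Both genes with a negative difference had a far lower wild-type level in MEP than in GMP, and with a pseudocount of 0.1 the difference of Mcpt8 did not pass the test.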

How the results depend on the processing

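The 584 genes called between Runx1-deleted and wild-type GMP became 1931 with the 4 GMP libraries alone, 1800 without the wild-type MEP libraries, 1994 with a weight for each group and 182 of the 7577 genes with a mean of at least 5 RPKM. Leaving out 1 GMP library gave 250 to 544 calls. The fit on the 4 GMP libraries kept 581 of the 584 calls. Counts were 537 without a variance trend, 781 after quantile normalization and 460 with a pseudocount of 0.1. Without a filter 637 of 17624 genes were called. Of the 10364 genes of the main fit, 228 were called higher and 170 lower without a filter. The count was 766 with the length trend removed and 700 with library number as a block. Limma voom on whole reads, an alternative chosen after seeing the data, gave 425. A fit with the replicate number as a block called 577; the deviations of same-numbered GMP libraries from their group means correlated at -0.0573, so the numbers were not taken to pair the samples. No called gene changed sign under any alternative run, while some uncalled genes and list medians did. For single genes and for counts within gene lists, 2155 values kept their side of the threshold or stayed within 1.5 times, a gene lost its call under an alternative in 216 cases and gained one in 19, and 232 list counts moved by over 1.5 times. The cause of the larger counts was not tested. The difference of the Mcpt8 effect between GMP and MEP was -1.34 (limma adjusted p = 0.477) with a pseudocount of 0.1, where low levels weigh more, and that of Treml1 was 1.19 to 1.66 without 1 library each, with an adjusted p of 0.0507 to 0.225 in 7 of these 8 fits. With 2 libraries a group and 20.8 M reads in the shallowest one, small changes of low genes could not be told from the spread.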
